A study of Mus musculus with 9 samples.

Results

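The DNA methylation writers and erasers of the mouse were followed in thymic invariant natural killer T (iNKT) cells: the maintenance methyltransferase gene *Dnmt1* and its recruiter *Uhrf1*, the de novo methyltransferase genes *Dnmt3a* and *Dnmt3b*, and the dioxygenase genes *Tet1*, *Tet2* and *Tet3*. These 7 genes were chosen by name for what their proteins do, with earlier results of these data known. All 7 were found among the 21883 genes of the expression table. RNA had been sequenced in 9 libraries, 3 from each of 3 groups of sorted thymic iNKT cells from C57BL/6 mice, and expression is given in FPKM (fragments counted per kilobase of transcript and scaled to the mapped fragments of the library), a unit per length in which levels of different genes can be compared. The study asked how stage 2 cells, low in the surface receptor NK1.1, differ from the NK1.1-high stage 3 cells that arise from them. It also asked what the loss of the Mediator subunit Med23 does to stage 2 cells. WT stage 2 and WT stage 3 cells came from wild-type mice 6 weeks old. *Med23*-deficient stage 2 cells came from *Med23*-/- mice, in which a floxed *Med23* is deleted by a Cre driven by the *Cd4* promoter. The study describes this deletion as efficient by the double-positive stage of T cell development, from which most iNKT cells arise. The labels give no age for the *Med23*-deficient mice, and the study's methods give only a range of weeks for the mice of all experiments. The *Med23*-deficient libraries carry later sample numbers than the WT ones. No label used here says whether all 9 were prepared and sequenced together. A difference in preparation or sequencing between them could not be told apart from genotype. The labels also do not say whether the 3 libraries of a group came from separate mice, so each p-value below measures the spread between these libraries. The study's methods speak of 3 independent experiments without saying which libraries they gave.

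The targeted gene itself was read first. In WT stage 2, *Med23* was read at 5.51, 5.15 and 6.74 FPKM (replicates 1 to 3, the order used throughout). The WT stage 3 libraries gave 7.14, 4.44 and 6.12 FPKM and the *Med23*-deficient ones 4.8, 3.6 and 3.92. The 3 *Med23*-deficient libraries lay below all 3 WT stage 2 libraries, but the transcript was still read in each of them. The difference from WT stage 2 was -0.41 in log2(FPKM + 1) (SE 0.18) and did not pass (limma adjusted p = 0.552). Since FPKM pools every exon of a gene, transcription of the deleted stretch alone cannot be read from it.

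The sorted cells carried T cell and iNKT transcripts in every library. *Cd3g*, which of 9 such markers had the highest mean over all libraries, lay between 176 and 230 FPKM. *Zbtb16*, which encodes the iNKT factor PLZF, averaged 101 FPKM in WT stage 2, 27.5 in WT stage 3 and 78.1 in *Med23*-deficient stage 2, the group order of all means given in threes. *Zbtb16* fell by 1.85 on the log2 scale between the WT stages (limma adjusted p = 0.0122). *Klrb1c*, which encodes NK1.1 and so reads the sorting gate itself, averaged 16.7, 75.0 and 3.42 FPKM and passed the fold and p thresholds between the WT stages, at 2.22 (limma adjusted p = 0.0786). *Il2rb*, a receptor chain for interleukins 2 and 15, averaged 121, 311 and 129 FPKM and rose by 1.36 between the WT stages (SE 0.14, limma adjusted p = 0.0171). *Tbx21*, the gene of the factor T-bet, averaged 29.4, 73.2 and 38.9 FPKM and passed the fold and p thresholds there, at 1.31 (limma adjusted p = 0.0742). Against WT stage 3, *Med23*-deficient stage 2 passed for *Klrb1c* at -4.10, *Il2rb* at -1.29 and *Zbtb16* at 1.48 (limma adjusted p = 0.00279, 0.0454 and 0.0212). Against WT stage 2 only *Klrb1c* passed the fold and p thresholds among these markers, at -1.88 (limma adjusted p = 0.21). A linear model in the manner of Ballgown, the study's tool, called none of the 9 by adjusted p in any comparison. At an unadjusted p under 0.05 it listed 2 between the WT stages and 6 against WT stage 3, where limma listed 6 and 5. Against WT stage 2 it listed 0 and limma 2, so *Klrb1c* did not pass in that model. Of all genes it listed 11.3%, 12.8% and 7.58%, and limma 13.2%, 10.2% and 9.58%. The 8 markers of double-positive thymocytes summed to 3.68 to 9.55 FPKM a library, with *Cd1d1* the most abundant. Of the others, *Cd8b1* reached 3.05 FPKM, *Dntt* 1.83, *Cd8a* 1.64, *Rag1* 1.58, *Rag2* 0.26, *Arpp21* 0.18 and *Ptcra* 0.08 in the library where each was highest, and *Rag1* was above 0 in all 9. B cell markers (6 genes, led by *Cd79b*) summed to 0.51 or less, erythroid markers (6, led by *Hbb-bs*) to 0.75 or less and thymic epithelial markers (5, led by *Epcam*) to 1.07 or less. The 6 myeloid markers, of which *S100a8* is not in the table, summed to 9.79 to 21.2 FPKM, most of it *Cst3*. Of the B cell, erythroid and thymic epithelial markers, 3, 5 and 2 were at 0 or not in the table.

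In mammals the methyl group is carried mainly by cytosines that precede a guanine (CpG). After each round of DNA replication the new strand is unmethylated, and UHRF1 binds such hemimethylated CpGs and brings DNMT1 to copy the mark, whereas DNMT3A and DNMT3B place marks on sites without a template. TET proteins oxidise the methyl group in a reaction that uses 2-oxoglutarate, after which the mark is lost by dilution at replication or by base excision repair, and in the thymus TET proteins are known to restrain the expansion of iNKT cells.

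All 7 genes were read above 0 in all 9 libraries, at levels that differed widely between them. *Dnmt1* was the most abundant in every group, at 38.6 ± 1.65 FPKM in WT stage 2, 38.6 ± 2.02 in WT stage 3 and 32.6 ± 3.16 in *Med23*-deficient stage 2 (SD, n = 3), above about 95% of detected genes. *Tet3* came next in each group and *Tet1* last. In WT stage 2 the levels between them ran *Dnmt3a*, *Uhrf1*, *Tet2* and *Dnmt3b*, and each neighbouring pair of these overlapped between libraries. In WT stage 3 the order was *Tet2*, *Dnmt3a*, *Dnmt3b* and *Uhrf1*; the first 3 overlapped with their neighbours and *Uhrf1* overlapped only with *Tet1*. In *Med23*-deficient stage 2 it was *Dnmt3a*, *Tet2*, *Dnmt3b* and *Uhrf1*, with overlap between *Tet2* and *Dnmt3b* and between *Dnmt3b* and *Uhrf1*. The place of *Uhrf1* was the one that moved most: its mean exceeded that of 71.2% of detected genes in WT stage 2, 45.0% in WT stage 3 and 43.9% in *Med23*-deficient stage 2. The plot of all 7 genes by library shows these levels, each gene on its own scale.

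**Figure D1:**
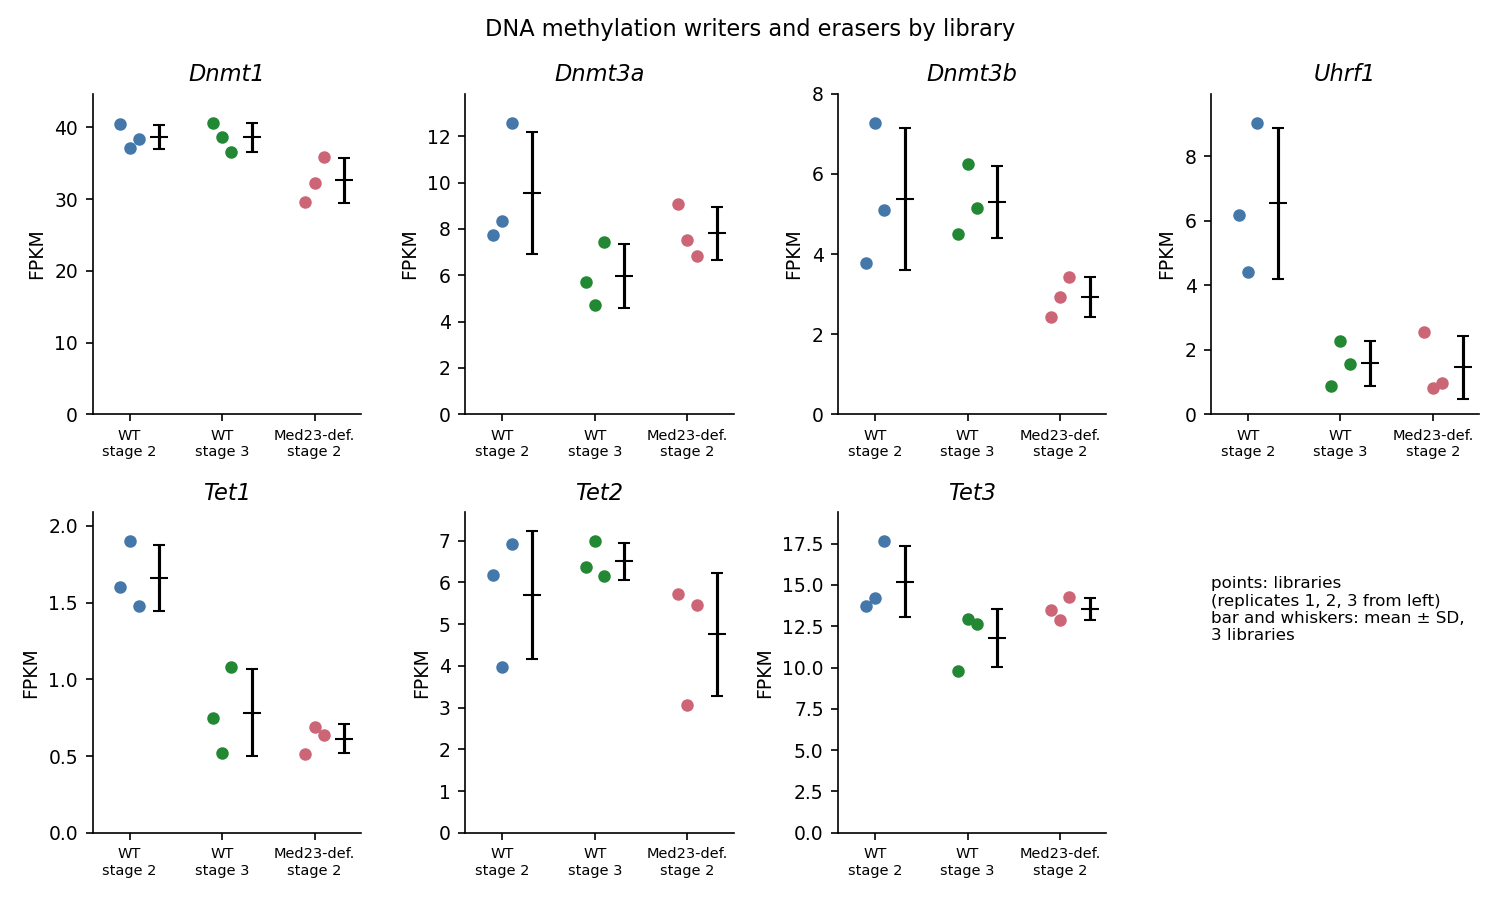
FPKM (vertical axis, from 0, a separate scale for each gene) of the 7 genes, with the groups side by side on the horizontal axis; each point is a library and the bar with whiskers is the mean ± SD of 3 libraries. *Uhrf1* lies between 4.41 and 9.04 in WT stage 2 and at 2.56 or less in the other 6 libraries, while *Dnmt1* stays between 29.6 and 40.6 in all 9.

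The recruiter of the maintenance enzyme was the gene that differed most. *Uhrf1* (ENSMUSG00000001228, plus strand, chr17:56303321-56323486 in mm10) was read at 6.18, 4.41 and 9.04 FPKM in WT stage 2. It was read at 0.89, 2.28 and 1.56 in WT stage 3 and at 2.56, 0.81 and 0.98 in *Med23*-deficient stage 2. Every WT stage 2 library was thus above every library of the other groups, which overlapped with each other. The means were 6.54 ± 2.34, 1.58 ± 0.695 and 1.45 ± 0.965 FPKM (SD, n = 3), 4.15-fold lower in WT stage 3 and 4.51-fold lower in *Med23*-deficient stage 2 than in WT stage 2. In log2(FPKM + 1) the difference was -1.54 (SE 0.33, 95% confidence interval -2.34 to -0.74) for WT stage 3 and -1.64 (SE 0.37, -2.55 to -0.74) for *Med23*-deficient stage 2. Both passed the study's thresholds of a 2-fold change with an unadjusted p of at most 0.05. Neither passed after Benjamini-Hochberg adjustment over all genes, with limma adjusted p = 0.0985 and 0.206. Between *Med23*-deficient stage 2 and WT stage 3 the difference was -0.10 (-1.01 to 0.80, limma adjusted p = 0.933), an interval that still holds a 2-fold difference on the lower side. The adjusted p of the WT comparison depended on the genes tested: restricted to genes averaging an FPKM of 1 or more it was 0.0367, and over all alternatives it ran from 0.0367 to 0.612. An ordinary linear model in the manner of Ballgown, the study's tool, did not pass *Uhrf1* in either comparison. In bulk RNA, fewer cells that express a gene and less of its RNA per cell cannot be told apart.

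*Uhrf1* has a pair of annotated starts, and the DNA before each is printed because this gene carried the clearest difference. The sequences are from RefSeq (GRCm38.p6), plus strand, 5′ to 3′, with CpG in capitals; they cover chr17:56303087-56303320 and chr17:56304063-56304312 and hold no annotated exon. The first ends where the gene model begins and the second lies within it, between exons.
Uhrf1 upstream start: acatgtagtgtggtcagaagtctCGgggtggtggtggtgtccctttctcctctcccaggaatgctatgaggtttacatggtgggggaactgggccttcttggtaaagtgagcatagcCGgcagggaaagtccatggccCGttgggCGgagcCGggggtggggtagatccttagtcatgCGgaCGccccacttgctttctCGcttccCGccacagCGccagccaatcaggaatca
Uhrf1 downstream start: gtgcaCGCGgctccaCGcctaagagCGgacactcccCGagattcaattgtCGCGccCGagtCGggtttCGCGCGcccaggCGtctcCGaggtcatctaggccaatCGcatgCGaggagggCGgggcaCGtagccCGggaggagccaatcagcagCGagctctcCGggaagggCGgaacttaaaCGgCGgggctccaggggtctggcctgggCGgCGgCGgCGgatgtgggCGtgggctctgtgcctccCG
The first holds 10 CpG in 234 bases and the second 30 in 250. All 7 genes had a RefSeq window from 250 bases before to 50 after a start, 12 windows in all. Counted over the full 300 bases, the windows of *Uhrf1* held 12 and 33 CpG, against a median of 7 over 32851 windows of 27025 genes. The letters CCAAT, searched on both strands, occurred 3 times in the upstream and 2 times in the downstream window, and were present in 37.4% of all windows; the printed stretches hold 1 and 2 of these matches. The letters TTTCCCGC and TTTGGCGC, short forms of the site bound by E2F factors, searched on both strands, were in neither *Uhrf1* window and in 1.56% of all windows. With the forms TTTCGCGC and TTTGCCGC, added after the sequences were seen, the downstream window held 1 match, which lies in the printed stretch, and the upstream window none, against 2.26% of all windows with any. Among the other members only *Dnmt1* held a match, in 1 of its 3 windows, 1 to the first forms and 2 to all 4. The CpG counts of the other members ran from 2 in the most upstream *Dnmt1* window to 57 in the *Tet2* window.

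The enzyme itself did not follow its recruiter between the WT stages. *Dnmt1* (ENSMUSG00000004099, minus strand, chr9:20907209-20959888) was read at 40.39, 37.14 and 38.31 FPKM in WT stage 2 libraries and 40.64, 38.6 and 36.6 in WT stage 3. It was read at 29.64, 32.21 and 35.92 in *Med23*-deficient stage 2. The WT groups overlapped almost fully, and the 3 *Med23*-deficient libraries were the lowest of the 9. The log2 difference of WT stage 3 from WT stage 2 was -0.00 (95% confidence interval -0.20 to 0.20, limma adjusted p = 1), and with libraries scaled to a common upper quartile its sign turned, at 0.08. For *Med23*-deficient stage 2 it was -0.24 against WT stage 2 (-0.48 to -0.01, limma adjusted p = 0.504) and -0.24 against WT stage 3 (-0.48 to -0.00, adjusted p = 0.477), so neither passed. The first ran from -0.37 on the TPM scale to -0.14 with a common upper quartile. Per 100 FPKM of *Dnmt1* there were 15.3, 11.9 and 23.6 of *Uhrf1* among WT stage 2 libraries, 2.19, 5.91 and 4.26 in WT stage 3 and 8.64, 2.51 and 2.73 in *Med23*-deficient stage 2. This ratio does not depend on how a library is scaled, and WT stage 2 lay above the other groups without overlap. A microRNA gene model, *Mir7081*, lies within *Dnmt1* on the same strand and was read at 1.6 FPKM or less.

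The de novo writers gave different patterns. *Dnmt3a* (ENSMUSG00000020661, plus strand, chr12:3806007-3914443) was read at 7.76, 8.34 and 12.59 FPKM in WT stage 2 libraries, 5.73, 4.7 and 7.43 in those of WT stage 3 and 9.08, 7.52 and 6.85 in *Med23*-deficient stage 2. WT stage 3 lay below WT stage 2 without overlap, and the *Med23*-deficient libraries overlapped with both. The log2 difference between the WT stages was -0.59 (SE 0.24, 95% confidence interval -1.17 to -0.02, limma adjusted p = 0.36), and -0.31 in the Ballgown-style model (unadjusted p = 0.502). *Dnmt3aos*, an antisense model over *Dnmt3a*, was listed at 0.15 FPKM or less, though whether strand was used in quantification is not stated, here as for the models within *Tet3*. *Dnmt3b* (ENSMUSG00000027478, plus strand, chr2:153649450-153687730) was read at 3.77, 7.28 and 5.09 FPKM in WT stage 2 libraries, 4.49, 6.26 and 5.15 in those of WT stage 3 and 2.43, 2.94 and 3.42 in *Med23*-deficient stage 2. Here the WT stages overlapped, and the *Med23*-deficient libraries lay below all 6 WT libraries. Their mean was 2.93 ± 0.495 FPKM, against 5.38 ± 1.77 in WT stage 2 and 5.30 ± 0.894 in WT stage 3 (SD, n = 3). The log2 difference was -0.67 against WT stage 2 (-1.31 to -0.03, limma adjusted p = 0.49) and -0.68 against WT stage 3 (-1.16 to -0.20, adjusted p = 0.265). Over the alternatives that kept all libraries, the first ran from -0.84 to -0.44. Between the WT stages the difference was 0.01 (-0.60 to 0.62, adjusted p = 0.99). It turned to -0.08 on the TPM scale, where all libraries have the same sum, and was 0.44 in the Ballgown-style model (unadjusted p = 0.274).

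Among the erasers, *Tet1* differed most from WT stage 2 and was the least abundant. *Tet1* (ENSMUSG00000047146, minus strand, chr10:62804570-62899118) was read at 1.6, 1.9 and 1.48 FPKM in WT stage 2 libraries, 0.75, 0.52 and 1.08 in those of WT stage 3 and 0.51, 0.69 and 0.64 in *Med23*-deficient stage 2. As for *Uhrf1*, WT stage 2 lay above the other groups, which overlapped. The log2 difference was -0.59 for WT stage 3 (SE 0.22, 95% confidence interval -1.13 to -0.04, limma adjusted p = 0.336) and -0.72 for *Med23*-deficient stage 2 (SE 0.21, -1.22 to -0.22, adjusted p = 0.317). At such low FPKM the added 1 shrinks a fold: with 0.1 or 0.01 added in its place, the *Med23*-deficient difference was -1.30 or -1.43 and passed the fold and p thresholds. The WT stage 3 difference became -1.04 or -1.13 and did not pass (limma unadjusted p = 0.0665 and 0.0605). *Tet2* (ENSMUSG00000040943, minus strand, chr3:133463679-133545139) was read at 6.17, 3.98 and 6.93 FPKM in WT stage 2 libraries, 6.36, 6.99 and 6.16 in those of WT stage 3 and 5.73, 3.07 and 5.47 in *Med23*-deficient stage 2. The stage 2 groups overlapped with each other and WT stage 3 overlapped with WT stage 2, while all 3 WT stage 3 libraries lay above the *Med23*-deficient ones. The log2 difference between those last groups was -0.42 (-0.98 to 0.15, limma adjusted p = 0.652), and -0.18 without *Med23*-deficient replicate 2. *Tet3* (ENSMUSG00000034832, minus strand, chr6:83362373-83459084) was read at 13.73, 14.18 and 17.65 FPKM in WT stage 2 libraries, 9.77, 12.91 and 12.65 in those of WT stage 3 and 13.48, 12.89 and 14.25 in *Med23*-deficient stage 2. Only the WT stages were apart, by -0.34 in log2 (-0.73 to 0.04, limma adjusted p = 0.429), which became -0.22 without WT stage 3 replicate 1 and -0.12 in the Ballgown-style model. On the strand of *Tet3* lie a pair of other models, *5430434F05Rik* at 1.17 to 3.97 FPKM and *Mir6374* at 0 to 11.2 FPKM.

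Counted together, 4 of the 7 genes did not overlap between WT stage 3 and WT stage 2, *Dnmt3a*, *Uhrf1*, *Tet1* and *Tet3*, all lower in stage 3. Of all 20689 genes tested, 17.8% did not overlap. By the fold and p thresholds 1 of 7 was called (*Uhrf1*), against 3.60% of all genes, and by adjusted p 0 of 7, against 1.67%. For *Med23*-deficient stage 2 against WT stage 2, 4 of 7 did not overlap, *Dnmt1*, *Dnmt3b*, *Uhrf1* and *Tet1*, all lower, against 14.0% of 20674 genes. Here 1 of 7 passed the fold and p thresholds (*Uhrf1*), against 2.11%, and 0 of 7 the adjusted p, against 0.213%. For *Med23*-deficient stage 2 against WT stage 3, 3 of 7 did not overlap, *Dnmt1*, *Dnmt3b* and *Tet2*, all lower, against 14.2% of 20846 genes. In that comparison 0 of 7 passed the fold and p thresholds, against 2.86%, and 0 of 7 the adjusted p, against 1.33%. Abundant genes separate more readily: among those averaging an FPKM of 1 or more, 24.5%, 19% and 18.9% did not overlap in the 3 comparisons. Of the same genes, 5.59%, 3.34% and 4.47% passed the fold and p thresholds. At an unadjusted p under 0.05 limma listed 3, 4 and 2 of the 7 genes, against 13.2%, 9.58% and 10.2% of all genes tested. These counts moved with the processing, to 1, 2 and 1 with a common upper quartile, and ran from 1 to 4, 2 to 4 and 0 to 2 over the limma alternatives and the fits with 1 library left out. The Ballgown-style model listed 0, 1 and 1, against 11.3%, 7.58% and 12.8%. The comparisons share libraries and are not independent of one another.

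The plot of fold changes sets the 3 comparisons side by side. In *Med23*-deficient stage 2 against WT stage 2 all 7 differences were below 0, with a median of -0.24. They were below 0 under each of the 3 other scalings too, and their median moved to -0.37 on the TPM scale and -0.15 with a common upper quartile. Without *Med23*-deficient replicate 2, the difference of *Tet2* turned to 0.0070. Of genes averaging an FPKM of 1 or more, 44.0% were above 0 in this comparison. Over all genes averaging an FPKM of 1 or more, the median difference was -0.05 both here and between the WT stages, and it moved to -0.16 and -0.14 on the TPM scale and to 0.04 and 0.02 with a common upper quartile. The interval of *Uhrf1* lay wholly below the median of -0.05 in both comparisons with WT stage 2, and so did the interval of *Tet1* in *Med23*-deficient stage 2. The intervals of the other genes included it there. In *Med23*-deficient stage 2 against WT stage 3 the median was -0.00, and the intervals of *Dnmt3b* and, narrowly, *Dnmt1* lay below it.

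**Figure D2:**
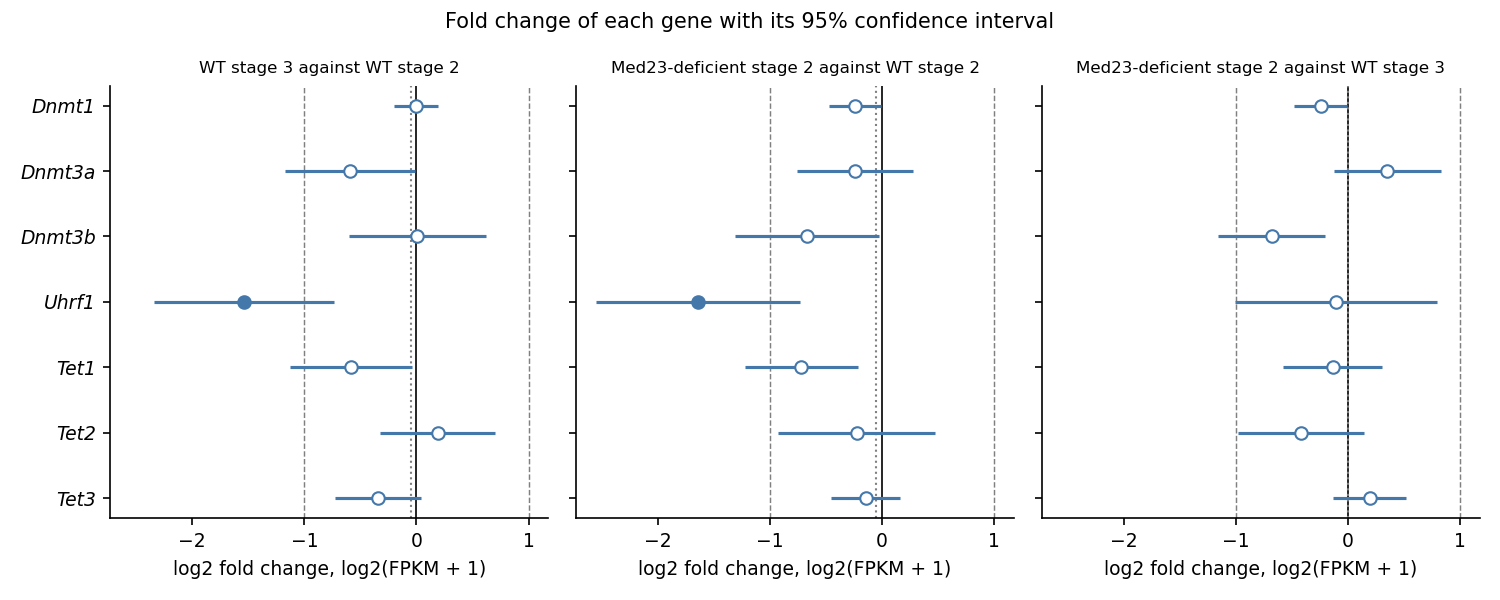
Difference in log2(FPKM + 1) (horizontal axis) of each of the 7 genes in the 3 comparisons, with its 95% confidence interval; filled points passed a 2-fold change with p at most 0.05, dashed lines mark a 2-fold change and the dotted line is the median over genes averaging an FPKM of 1 or more. Only *Uhrf1* is filled, at -1.54 and -1.64 against WT stage 2, and it lies at -0.10 between *Med23*-deficient stage 2 and WT stage 3.

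The make-up of each enzyme family can be read within a library, where scaling plays no part. *Dnmt1* made 72.2% ± 4.94 of the summed FPKM of the DNMT genes in WT stage 2, 77.4% ± 2.77 in WT stage 3 and 75.1% ± 2.89 in *Med23*-deficient stage 2 (SD, n = 3). The share of *Dnmt3a* was 17.7% ± 4.13, 12.0% ± 2.87 and 18.2% ± 3.65, and that of *Dnmt3b* 10.1% ± 3.37, 10.6% ± 1.91 and 6.73% ± 0.762. The groups overlapped in each of these shares except that of *Dnmt3b*, where *Med23*-deficient libraries, at 7.40% or less, lay below WT stage 3, at 8.83% or more. The summed DNMT level was 53.6 ± 2.15, 49.9 ± 0.881 and 43.3 ± 2.59 FPKM. In the TET family *Tet3* held the larger part, 67.4% ± 3.42, 61.6% ± 3.20 and 71.9% ± 4.83. The share of *Tet2* was 25.0% ± 4.63, 34.3% ± 3.35 and 24.8% ± 5.61, so that in WT stage 3 every library, at 31.0% to 37.7%, lay above the 6 stage 2 libraries, at 18.4% to 29.1%. That of *Tet1* was 7.53% ± 1.90, 4.14% ± 1.47 and 3.29% ± 0.789, with every WT stage 2 library above the others. The stacked bars show both families library by library. No test was made of these shares.

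**Figure D3:**
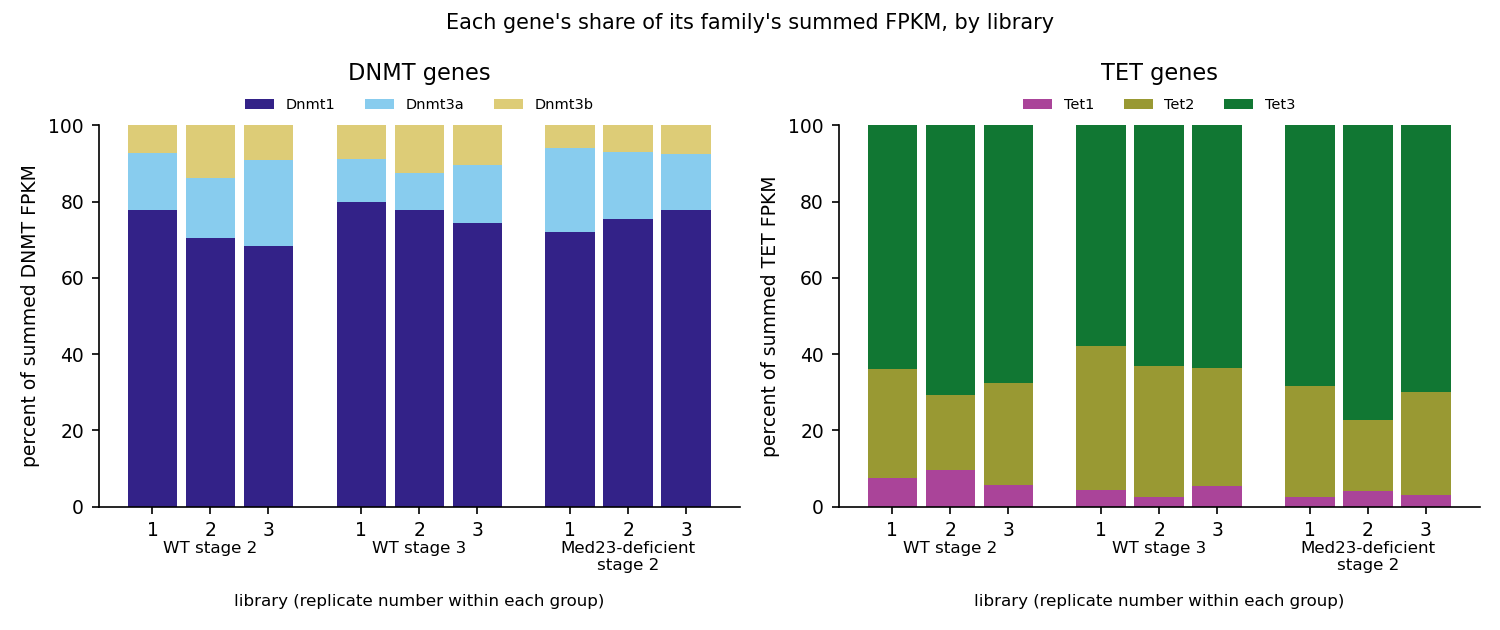
Percent of the summed FPKM (vertical axis, 0 to 100) that each DNMT gene (left) and each TET gene (right) makes in each of the 9 libraries. *Dnmt1* makes 68.4% to 79.9% of the DNMT sum, and *Tet2* makes 31.0% to 37.7% of the TET sum in WT stage 3 against 18.4% to 29.1% in the stage 2 libraries of both genotypes.

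Several genes that work with the writers at replicating DNA passed the test. Of 12 maintenance partners 11 were in the table. Between the WT stages 3 of the 11 were lower by the fold and p thresholds and 2 by limma's adjusted p, beside 3.60% and 1.67% of all genes called, with a median log2 difference of -0.21. For *Med23*-deficient stage 2 against WT stage 2 the counts were 3 and 1, beside 2.11% and 0.213%, with a median of -0.57. None was higher by limma in either comparison. Of genes averaging an FPKM of 1 or more, as all 11 did, 5.59% and 3.34% passed the fold and p thresholds. At an unadjusted p under 0.05 limma listed 4 and 5 partners (13.2% and 9.58% of all genes) and the Ballgown-style model 2 and 4 (11.3% and 7.58%), none of them by that model's adjusted p. *Hells*, which encodes the remodeller that opens chromatin for methylation, stood at 6.11, 6.71 and 6.16 FPKM in WT stage 2, 2.6, 2.03 and 2.17 in WT stage 3 and 2.73, 1.67 and 2.67 in *Med23*-deficient stage 2. The WT stage 2 libraries were close to each other and far above the rest. *Hells* fell by 1.17 on the log2 scale in WT stage 3 (SE 0.17, limma adjusted p = 0.0404), and differed by -1.14 in *Med23*-deficient stage 2 (SE 0.21, adjusted p = 0.136), where it passed the fold and p thresholds. *Cdca7*, whose protein recruits that remodeller, had means of 7.20, 2.98 and 3.07 FPKM and passed the same thresholds, at -1.07 and -1.01 (limma adjusted p = 0.136 and 0.191). *2810417H13Rik*, the gene of the PCNA-associated factor PAF15, had means of 2.46, 0.140 and 0.130 FPKM. It fell by 1.61 in WT stage 3 (limma adjusted p = 0.028) and differed by -1.62 in *Med23*-deficient stage 2 (adjusted p = 0.0604).

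*Pcna*, which encodes the sliding clamp of replication to which DNMT1 binds, had another pattern. It was read at 32.29, 33.99 and 34.43 FPKM in WT stage 2 libraries, 29.12, 32.43 and 25.54 in those of WT stage 3 and 16.43, 18.07 and 17.52 in *Med23*-deficient stage 2. The WT groups overlapped slightly, and the *Med23*-deficient libraries lay below both, as did those of *Dnmt1* and *Dnmt3b*. *Pcna* fell by 0.92 on the log2 scale against WT stage 2 (SE 0.08, limma adjusted p = 0.0304). Against WT stage 3 the difference was -0.71 (limma adjusted p = 0.0508), and between the WT stages it was -0.21 (adjusted p = 0.48). Of the other partners, *Lig1*, the ligase that joins replication fragments, had means of 9.66, 5.98 and 5.89 FPKM and *Uhrf2*, a relative of *Uhrf1*, 7.22, 6.13 and 6.27, and neither passed. In *Med23*-deficient stage 2 against WT stage 3, limma called 0 of the 11 partners, whose median was 0.00, and both limma and the Ballgown-style model listed 1 at an unadjusted p under 0.05. Of all genes, limma called 2.86% there by the fold and p thresholds and 1.33% by adjusted p. At an unadjusted p under 0.05 limma listed 10.2% of all genes and the Ballgown-style model 12.8%.

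Genes related to reading of the mark and to supply of the reaction were read in the same way. These lists held 10 genes from the families of methyl-CpG readers and 15 tested genes of TET partners and base excision repair. They also held 12 genes of S-adenosylmethionine supply and 10 of 2-oxoglutarate and fumarate metabolism. Limma called none of these genes between the WT stages and none between *Med23*-deficient and WT stage 2. At an unadjusted p under 0.05, limma listed 2, 1, 5 and 0 genes of these lists between the WT stages and the Ballgown-style model 2, 0, 2 and 0. In the *Med23*-deficient comparison the counts were 2, 2, 3 and 1 for limma and 0, 2, 1 and 1 for the other model. Of all genes, limma listed 13.2% and 9.58% in these comparisons and the Ballgown-style model 11.3% and 7.58%. Their median log2 differences were 0.10, -0.06, -0.17 and -0.35 between the WT stages and 0.07, -0.12, -0.10 and -0.19 in the other comparison. In each comparison the median was -0.01 over all genes tested and -0.05 over genes averaging an FPKM of 1 or more. The medians of the lists moved with scaling. On the TPM scale they were 0.01, -0.12, -0.24 and -0.40 between the WT stages and -0.04, -0.21, -0.21 and -0.27 in the other comparison. With a common upper quartile they were 0.17, -0.05, -0.12 and -0.27, and 0.15, -0.04, -0.02 and -0.14. The most abundant genes of these lists were *Mbd2* among readers, at 41.8, 49.2 and 42.4 FPKM, and *Ogt*, a partner of TET proteins, at 23.0, 24.1 and 23.5. *Sdha*, a subunit of succinate dehydrogenase, stood at 35.2, 35.7 and 34.0 FPKM. *Shmt2*, which feeds carbon units from serine into the folate cycle in mitochondria, averaged 25.7, 14.5 and 13.8 FPKM, with no overlap between WT stage 2 and the other groups. It did not pass, at -0.80 (limma adjusted p = 0.151) and -0.85 (adjusted p = 0.166). Its neighbour in that cycle, *Mthfd2*, averaged 9.30, 5.54 and 10.8 FPKM and was higher in *Med23*-deficient stage 2 than in WT stage 3 (log2 difference 0.84, SE 0.13, limma adjusted p = 0.0492). That was the single limma call of these lists in that comparison, where 1.33% of all genes passed the adjusted p, and the Ballgown-style model called none of their genes by adjusted p. At an unadjusted p under 0.05 the counts there were 2, 2, 1 and 0 for limma and 3, 2, 2 and 0 for the other model, beside 10.2% and 12.8% of all genes. The plot of the lists shows each gene's difference and the median of each list.

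**Figure D4:**
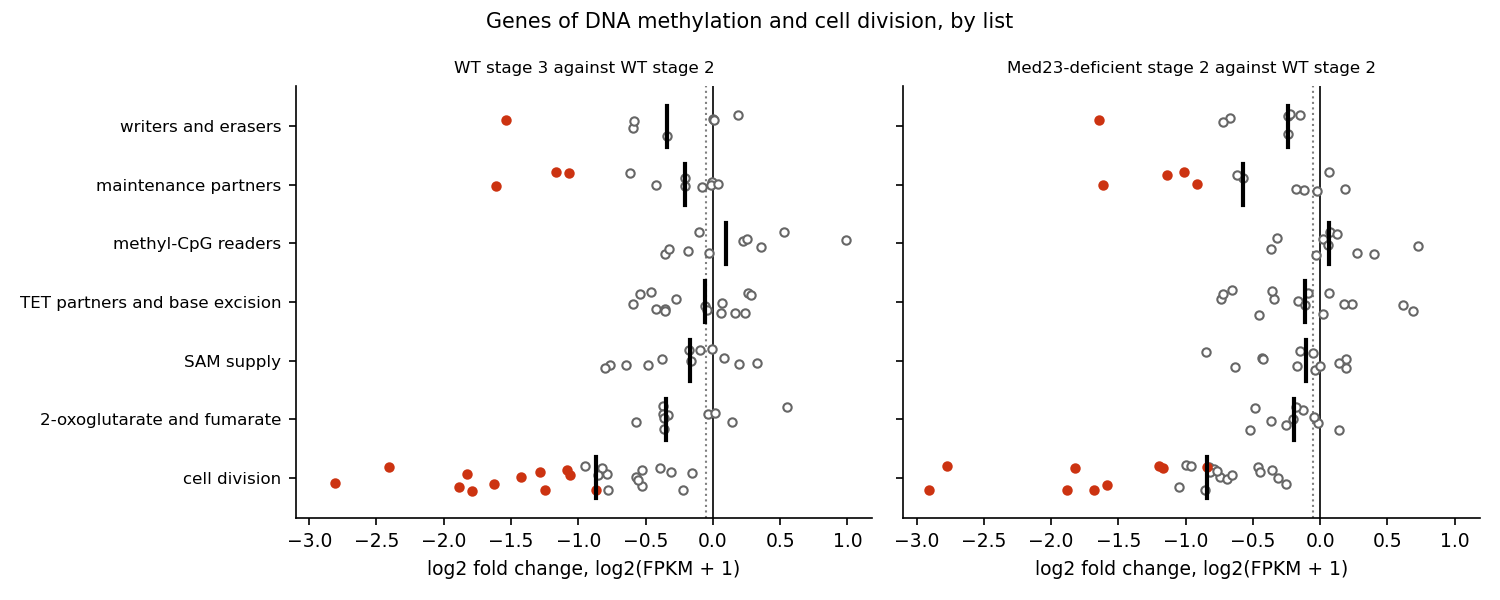
Difference in log2(FPKM + 1) (horizontal axis) of each gene of 7 lists for WT stage 3 (left) and *Med23*-deficient stage 2 (right) against WT stage 2; filled red points passed the fold and p thresholds or the adjusted p, black bars are list medians and the dotted line is the median over genes averaging an FPKM of 1 or more. Medians of cell division genes lie at -0.87 and -0.84 and those of genes from the families of methyl-CpG readers at 0.10 and 0.07.

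Because maintenance methylation is tied to replication, 25 genes of cell division were read alongside. Like the other lists, this one was chosen with earlier results of these data known. All 25 were lower in WT stage 3 and all 25 in *Med23*-deficient stage 2 than in WT stage 2, with medians of -0.87 and -0.84, and this held for all 25 under each of the 3 other scalings. By limma 11 and 8 of them passed the fold and p thresholds (3.60% and 2.11% of all genes) and 3 and 3 the adjusted p (1.67% and 0.213%). Of genes averaging an FPKM of 1 or more, as 18 of the 25 did in each comparison, 5.59% and 3.34% passed the fold and p thresholds. At an unadjusted p under 0.05 limma listed 19 and 21 of the 25, beside 13.2% and 9.58% of all genes. The Ballgown-style model listed 5 and 13, beside 11.3% and 7.58%, and none passed that model's adjusted p. Against WT stage 3, *Med23*-deficient stage 2 had 15 higher and 10 lower, a median of 0.03 and no call, beside 2.86% and 1.33% of all genes by the same limma criteria. At an unadjusted p under 0.05 it had 0 of the 25 genes in limma and 1 in the Ballgown-style model, beside 10.2% and 12.8% of all genes. *Mki67*, the gene of the Ki-67 antigen, was read at 22.25, 29.7 and 34.82 FPKM in WT stage 2 libraries, 2.25, 7.47 and 1.69 in those of WT stage 3 and 4.05, 2.09 and 2.89 in *Med23*-deficient stage 2. It was high in every WT stage 2 library and low in the other 6. *Mki67* fell by 2.81 in WT stage 3 (SE 0.45, limma adjusted p = 0.049) and by 2.91 in *Med23*-deficient stage 2 (SE 0.24, adjusted p = 0.0301). *Ccnb2*, a mitotic cyclin, differed by -2.41 (limma adjusted p = 0.0517) and fell by 2.77 (adjusted p = 0.0367). The survivin gene *Birc5* fell by 1.62 in WT stage 3 (limma adjusted p = 0.0445). *Bub1* (adjusted p = 0.0195 in WT stage 3, where it was listed at 0 in all 3 libraries) and *Mcm3* (adjusted p = 0.0427 in *Med23*-deficient stage 2) complete the adjusted calls and are named after their values were seen. *Top2a*, *Cdc20*, *E2f2* and *Rrm2* passed the fold and p thresholds in both comparisons and *Ccne2* in the first. *Mcm6*, the most abundant of the list, averaged 31.9, 17.6 and 18.7 FPKM.

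The genes whose pattern was most like that of *Uhrf1* were looked for over the 9 libraries. Likeness was taken as the root mean square difference in log2(FPKM + 1) after each gene was centred on its own mean, over 9654 genes, and only *Uhrf1* had group means far enough apart (1.64, at least 1 required) for this to be read. The closest was *Rrm2*, a subunit of ribonucleotide reductase, at 0.20, with means of 5.48, 0.810 and 1.05 FPKM. Next were *Cenpe*, a kinetochore motor, at 0.23, with 2.86, 0.417 and 0.593 FPKM, and *Ass1*, argininosuccinate synthase, at 0.25, with 17.9, 6.00 and 6.23 FPKM. For scale, *Uhrf1* itself varied by 0.84 around its mean. In the plot of *Uhrf1* beside replication genes, *Uhrf1*, *Rrm2* and *Mki67* are high in the same 3 libraries, *Dnmt1* moves little and *Pcna* is low only in the *Med23*-deficient libraries. The part of cell division in the differences of *Uhrf1* and *Tet1* was not tested.

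**Figure D5:**
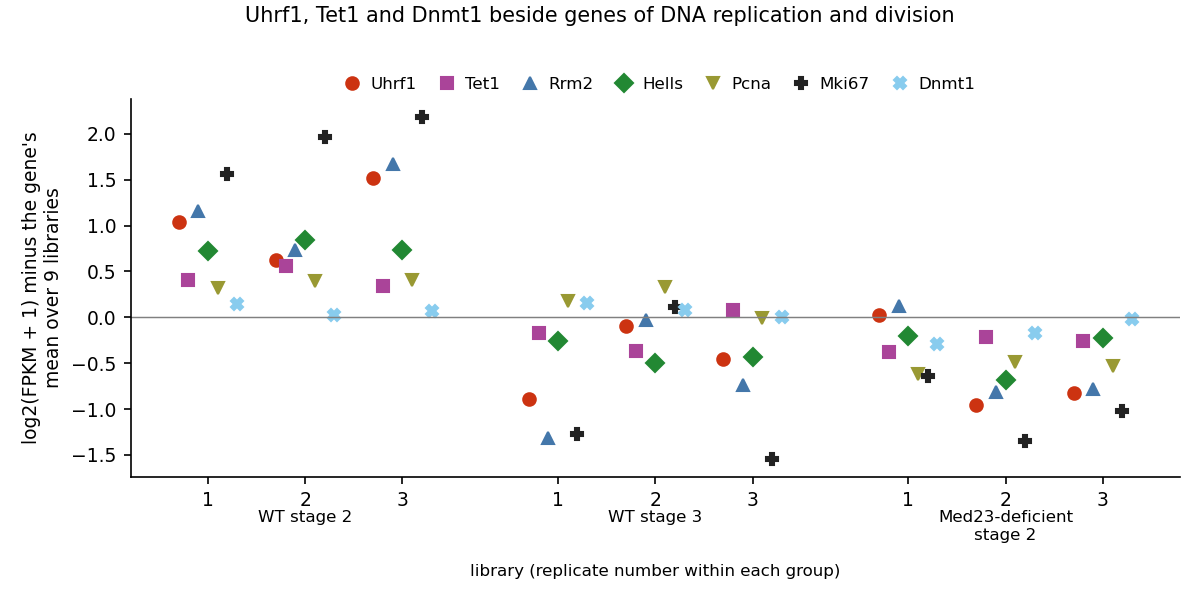
log2(FPKM + 1) minus the gene's mean over 9 libraries (vertical axis) for *Uhrf1*, *Tet1*, *Dnmt1* and 4 genes of replication and division, by library; points of a library are set side by side for legibility. *Uhrf1*, *Rrm2*, *Hells* and *Mki67* are above their means in all 3 WT stage 2 libraries, and *Pcna* is lowest in the 3 *Med23*-deficient ones, at 16.4 to 18.1 FPKM.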

How the data were processed

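Libraries had been made from total RNA of sorted cells, 3 in each of 3 groups. The values are FPKM that the authors deposited as 1 table, rounded to 2 decimals. Per the study's methods and processing notes, reads were trimmed with Trimmomatic 0.36, aligned to mm10 with HISAT2, and those hitting no more than 2 loci were quantified with StringTie. No read counts are given, which leaves library depth unknown; genes above 0 numbered 15584 to 17333 a library, and 1 non-coding model, *Gm23935*, held 62.2% to 71.9% of the summed FPKM.

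Here log2(FPKM + 1) was fitted with limma 3.58.1 in R 4.3.3 (lmFit, eBayes with a trend, 2-sided) for each pair of groups, over genes above 0 in at least 1 library of the fit. Genes were called where p, adjusted after Benjamini-Hochberg over the whole fit, did not exceed 0.05 or, after the study, a fold of at least 2 with p of at most 0.05. Figures were drawn with matplotlib 3.10.9 in Python 3.11.15. The procedure was checked on simulated data, where the share of false calls by adjusted p was above its nominal level. A call with an adjusted p close to 0.05 may therefore be less firm than its value says. Alternatives were pseudocounts of 0.1 and 0.01, only genes averaging an FPKM of 1 or more, the TPM scale (equal sums), equal sums without *Gm23935*, a common upper quartile, limma without a trend, all 9 libraries in 1 fit, a Ballgown-style linear model with a library-size covariate, the replicate number as a block, and each library left out.

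Members and lists were chosen with earlier results of these data known. Genes named are the 7 members; from each list, those called in any comparison (up to 8, by size of change) and the most abundant; and the 3 genes most like a member whose group means differ by at least 1, leaving out Gm and Rik models and genes with a mean FPKM under 1. *Lig1*, *Uhrf2*, *Bub1* and *Mcm3* were named outside this rule, after their values were seen, and so were markers of other cells at or near 0. *Dnmt3l*, *Cxxc4*, *S100a8* and some further markers of other cells are not in the table.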

Additional observations from a re-analysis of the deposited data

How the results depend on the processing

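Of the recomputed differences of the 7 genes, 318 kept their direction and their side of the thresholds. Another 13 turned direction, 2 came to pass the thresholds and 2 no longer passed them, and the cause was not tested. *Uhrf1* passed the fold and p thresholds against WT stage 2 under every alternative but the Ballgown-style model (-1.30 in WT stage 3 and -1.64 in *Med23*-deficient stage 2, 0 members called in either). With 1 library left out it ran from -1.76 to -1.31 and from -1.95 to -1.42. *Tet1* passed in *Med23*-deficient stage 2 with pseudocounts of 0.1 (-1.30) and 0.01 (-1.43), making 2 members called with each. Testing only genes averaging an FPKM of 1 or more gave 1 member by adjusted p between the WT stages, and left *Tet1* out of the comparison with WT stage 3. Fewer genes were tested with this filter, and the unadjusted limma p of *Uhrf1* between the WT stages also moved, from 0.00332 to 0.00119. These changes were not separated. Signs turned only for small differences. Between the WT stages *Dnmt3b* was -0.080 on the TPM scale and -0.033 with equal sums without *Gm23935*, and *Dnmt1* was 0.084 with a common upper quartile. With 1 library left out, *Dnmt1* ran from -0.037 to 0.037, *Dnmt3b* from -0.18 to 0.22 and *Tet2* from -0.0087 to 0.33 between the WT stages, *Tet2* from -0.42 to 0.0070 in *Med23*-deficient against WT stage 2, and *Uhrf1* from -0.41 to 0.087 against WT stage 3. Counts over all genes moved more. Past the fold and p thresholds they were 1423, 971 and 1221 in the 3 comparisons with a pseudocount of 0.1 and 1452, 974 and 1211 with 0.01. By adjusted p, the 346 genes between the WT stages became 224 on the TPM scale, 600 with all 9 libraries in 1 fit and 5 in the Ballgown-style model. The 44 in *Med23*-deficient against WT stage 2 became 77 with a pseudocount of 0.01, 143 with the filter, 27 with equal sums without *Gm23935*, 162 with all 9 libraries and 1 in the Ballgown-style model, and the 278 against WT stage 3 became 18 in that model. Leaving out any of the 6 libraries of a fit (WT stage 2, WT stage 3 or *Med23*-deficient replicates 1, 2 and 3) moved these counts by over 1.5 times, to 22 to 137, 1 to 8 and 72 to 174. With the replicate number as a block they were 19, 0 and 42, and the members called were as many as without it; between the WT stages each library correlated best with its own number (0.0845, 0.0310 and 0.161), in the other comparisons not each did, and the labels give the number no meaning, so it was not taken to pair them. Depth is unknown, which limits what can be said of genes as low as *Tet1*.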
